A study of Mus musculus with 37 samples.

Results

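Cardiac fibroblasts (CFs) were compared after 24 h in medium from cardiomyocytes that had received the ectonucleotidase ENPP1 together with ATP and after 24 h in medium from cardiomyocytes given vehicle. The comparison took in 4 of the 37 samples of the series, chosen by their labels, with 2 RNA sequencing libraries per medium. The CFs were immortalized (the study's text names the SV40 antigen for its CF lines), were labelled wild type and came from C57BL/6 mice. They had been seeded sparsely and kept for 24 h in serum-free medium with insulin, transferrin and selenium before the myocyte conditioned medium (MCndM) was added. MCndM came from neonatal rat ventricular cardiomyocytes, so that both groups received rat cell medium, and the groups differed in whether recombinant ENPP1 protein plus ATP or vehicle had been given to those cardiomyocytes. These groups are called ENPP1+ATP and vehicle. The other 16 CF libraries of the same experiment, from other media and 48 h, served only to estimate the spread. The comparison asks which transcripts of CFs differ after ENPP1+ATP MCndM, a medium that the study examined for its effect on CF survival.

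ENPP1 is a membrane enzyme that hydrolyses extracellular ATP to AMP and pyrophosphate. The transcription factor p53 is stabilized when its ubiquitin ligase MDM2 no longer removes it, and it then drives genes of cell cycle arrest, repair and apoptosis. MDM2 and other feedback genes are themselves p53 targets. The p53 protein is held and altered by SV40 large T antigen, which also binds the retinoblastoma proteins that restrain E2F factors. Resting fibroblasts secrete collagens, proteoglycans and other extracellular matrix (ECM) and depend on growth factor receptors such as PDGFRα and PDGFRβ.

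Total counts were 39672441 and 43290297 reads in the ENPP1+ATP libraries, and 115824659 and 42547235 in the vehicle libraries. The first vehicle library was thus the deepest, and without it 3446 genes were called higher and 3843 lower. Of 30892 genes in the file, 17879 had enough reads to be tested. Mitochondrial genes took 2.79% and 3.34% of the reads with ENPP1+ATP and 2.32% and 2.29% with vehicle. Levels below are CPM, the read count of a gene scaled to the same library total (TMM scaling), given for the first and second library of a group. The labels do not say whether the 2 libraries of a group came from separate cultures. The study describes n as biological replicates and gives n = 2 for its principal component analysis of treated CFs. The p-values rest on a spread estimated over all 20 CF libraries of 10 groups, and not on the 4 libraries compared alone. Whether it is a spread between separate cultures is not known from the labels. In such bulk RNA, fewer cells of a kind and less RNA per cell cannot be told apart.

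The response was broad. With edgeR's quasi-likelihood test and Benjamini-Hochberg adjustment over 17879 genes, 4265 genes (23.9%) were higher and 4522 (25.3%) were lower with ENPP1+ATP than with vehicle at an adjusted p under 0.05, so that 49.1% of all genes tested were called. A change of at least 2-fold was reached by 1050 higher (5.87%) and 909 lower genes (5.08%). The median log2 fold change over all genes was -0.0046, and the middle 50% of genes lay between -0.38 and 0.37. Calls were more frequent among abundant genes. In the tenth of genes with the highest level, 30.98% were higher and 44.8% lower, against 7.83% and 4.19% in the tenth with the lowest level. In 76.2% of all genes tested the values of the groups did not overlap. The count of called members in each gene list is set beside these shares.

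**Figure D1:**
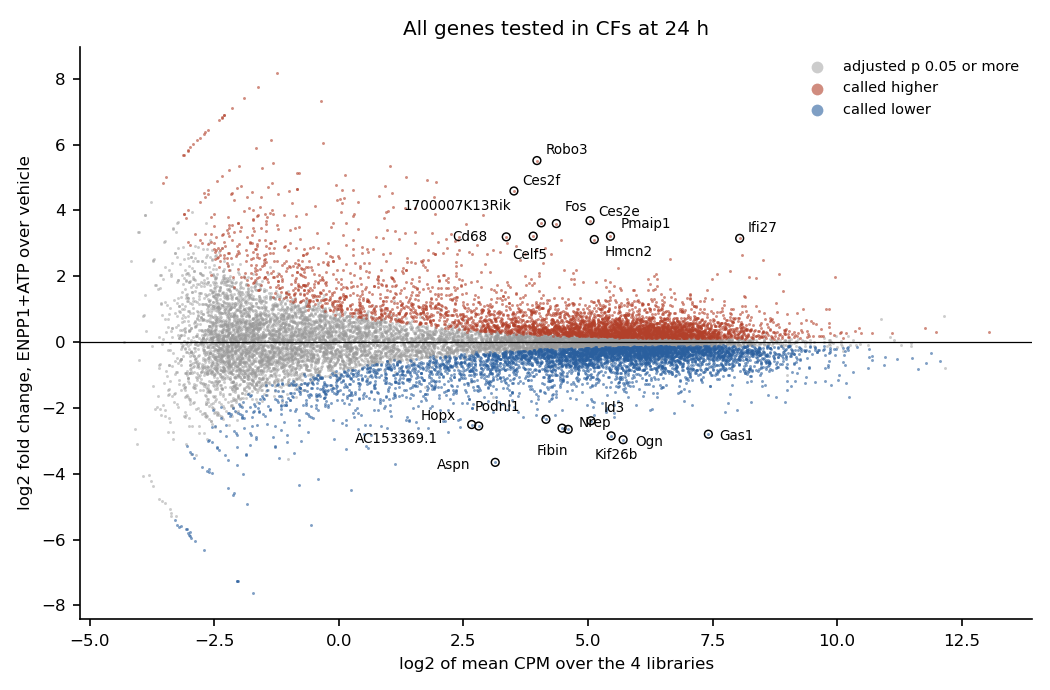
Each point is 1 of the 17879 genes tested, by its mean level over the 4 libraries (log2 CPM, horizontal) and its log2 fold change of ENPP1+ATP over vehicle (vertical). Red and blue points passed an adjusted p of 0.05. Rings mark the 10 largest rises and 10 largest falls among well-expressed genes, from Robo3 at 5.52 to Aspn at -3.65.

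The labelled cell type was checked against marker genes. Type I collagen (Col1a1) was at 2336 and 2245 CPM against 4140.1 and 3897 CPM, and the mesenchymal filament vimentin (Vim) at 1144 and 1194 CPM against 2028 and 1978 CPM. Both genes fell and stayed high. Of 15 fibroblast markers, 14 were tested, and 11 of those were lower with ENPP1+ATP. Thy1, a surface marker of many fibroblasts, was not tested, with 1 and 1 reads in the ENPP1+ATP libraries and 2 and 2 in the vehicle libraries. Dcn, the proteoglycan decorin, was at 18.9 and 19.4 CPM against 12.8 and 13.3 CPM and was the only marker of the list that rose. Cardiomyocyte markers were scarce, and their part in the differences was not tested. The 16 genes of that list summed to 20.6 and 20.7 CPM with ENPP1+ATP and to 28.9 and 27.5 CPM with vehicle. Of 15 tested, Tnnt2 and Tnni3, subunits of troponin, were lower and Ryr2, the calcium release channel, was higher, a call that was lost without any 1 of the 4 libraries. Of 11 endothelial markers, 6 were tested. Their sum of 663 and 649.6 CPM with ENPP1+ATP and 681 and 661 CPM with vehicle was nearly all Eng, the TGF-β coreceptor endoglin that stromal cells also make, at 653 and 640.2 CPM against 673 and 652 CPM. Egfl7 was at 4.77 and 4.75 CPM against 3.85 and 4.18 CPM, Tek at 2.13 and 2.11 CPM against 2.48 and 2.64 CPM, Kdr at 1.71 and 1.403 CPM against 0.771 and 1.37 CPM, Pecam1 at 0.857 and 0.226 CPM against 0.1401 and 0.2402 CPM and Vwf at 0.343 and 0.611 CPM against 0.324 and 0.384 CPM, and Cdh5, Tie1, Emcn, Cldn5 and Erg had between 0 and 10 reads in each library. The smallest adjusted p of the 6 was that of Pecam1 (0.11), which was called higher in a fit of the 4 libraries alone (adjusted p = 0.035). Smooth muscle and pericyte markers gave no common direction, with 4 of 9 tested higher and 2 lower, or 1 lower without any 1 of the 4 libraries, and a median of 0.73. The median was 0.44 without the second ENPP1+ATP library. Myh11, the smooth muscle myosin, was at 0.465 and 0.362 CPM against 0.2802 and 0.432 CPM, near the limit of detection. Of 4 macrophage markers tested, 2 were higher and the other 2 did not pass the test, and their values follow with the immune genes.

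Among genes whose log2 CPM averaged 2 or more, the largest rise was that of Robo3 (chr9:37415669-37433246), a receptor of axon guidance. Its level was 32.3 and 29.04 CPM in the ENPP1+ATP libraries and 0.666 and 0.673 CPM in the vehicle libraries, a log2 fold change of 5.52 (SE 0.21, adjusted p = 6.1e-14). The limit on level is on the average of both groups, and Robo3 passed it through its ENPP1+ATP libraries. Ces2f and Ces2e, carboxylesterases that cleave ester drugs and lipids, rose by 4.59 and 3.69 on the log2 scale. They are close paralogs in 1 cluster, and how reads were divided between them is uncertain. Fos, an AP-1 subunit, was at 39.2 and 36.6 CPM against 2.87 and 3.53 CPM, and both of its ENPP1+ATP values lay above 10 times the vehicle values.

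Pmaip1 encodes NOXA, a protein that promotes apoptosis. Its level was 76.02 and 81.4 CPM in the ENPP1+ATP libraries and 7.65 and 9.73 CPM in the vehicle libraries (log2 fold change 3.22, SE 0.14, adjusted p = 1.2e-11). Ifi27, an interferon-inducible protein of the mitochondrial membrane, rose from 53.7 and 53.1 to 496 and 454 CPM. Hmcn2, a large ECM protein, was at 65.3 and 59.9 CPM against 7.44 and 6.87 CPM. The other genes among the 10 largest rises were 1700007K13Rik (3.62), Celf5 (3.22), an RNA-binding splicing regulator, and Cd68 (3.20), a lysosomal membrane protein. Exons of Celf5 overlap an antisense gene, and the sources do not say whether counting used strand.

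Among genes whose log2 CPM averaged 2 or more, the largest fall was that of Aspn, the proteoglycan asporin. It was at 1.49 and 1.11 CPM against 19.2 and 13.2 CPM (log2 fold change -3.65, SE 0.44, adjusted p = 1.7e-05). Aspn passed the limit on level through its vehicle libraries. Ogn, the proteoglycan osteoglycin (chr13:49608046-49624501), was at 10.9 and 12.7 CPM in the ENPP1+ATP libraries and 91.9 and 92.9 CPM in the vehicle libraries. Its log2 fold change was -2.97 (SE 0.13), with replicates close together in both groups. Kif26b, a kinesin-like protein, was at 10.8 and 10.7 CPM against 77.8 and 77.1 CPM, with replicates of each group within 1 CPM.

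Gas1, a membrane protein that arrests growth and helps hedgehog ligands bind, fell from 342 and 255 to 46.1 and 39.95 CPM, a log2 fold change of -2.80. Its vehicle libraries differed more from each other than those of most named genes, and the groups did not overlap. Id3, an inhibitor of helix-loop-helix factors and a target of BMP signalling, was at 10.2 and 11.1 CPM against 56.5 and 55.3 CPM. Nrep (-2.65), Fibin (-2.62), Hopx (-2.55), AC153369.1 (-2.51) and Podnl1 (-2.35) made up the rest of the 10 largest falls. Exons of Aspn, Gas1, Kif26b and Hopx each overlap a gene on the opposite strand, as do those of Cdkn1a, Txnip, Tnfrsf18, Matn4 and Hmgcs1 named below, so reads of the partners cannot be told apart.

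**Figure D2:**
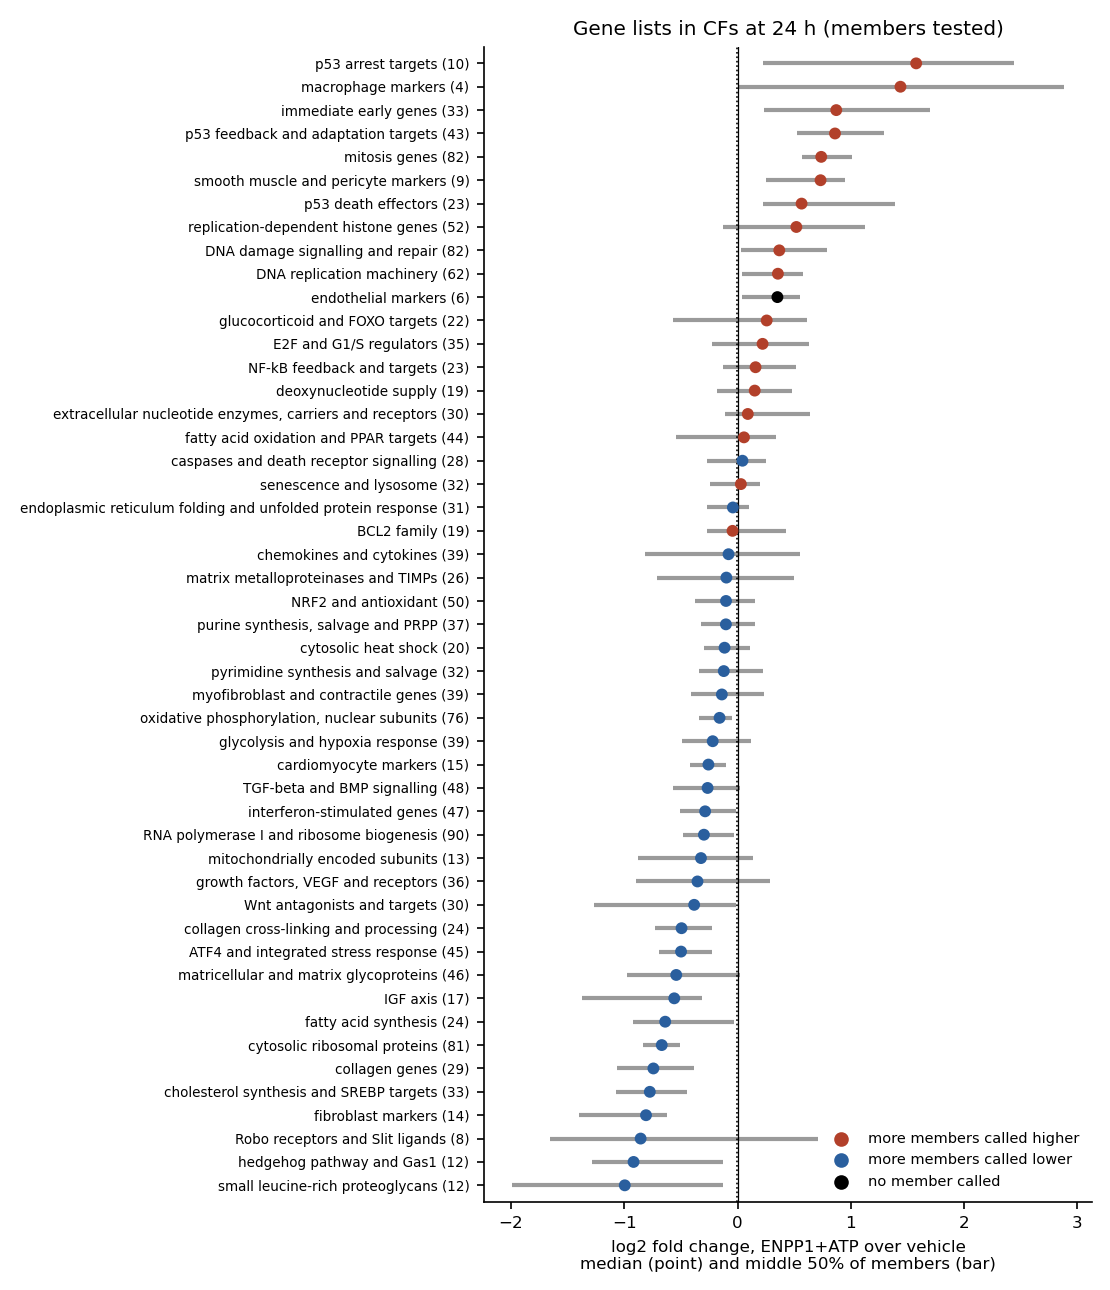
The 49 gene lists are ordered by the median log2 fold change of ENPP1+ATP over vehicle (horizontal, log2; points are medians, bars the middle 50% of members, and the number tested is in brackets). From the top, the lists run from p53 arrest targets (1.58) over the 4 macrophage markers tested (1.44), immediate early genes, p53 feedback targets and mitosis genes to smooth muscle markers (0.73). From the bottom, they run from proteoglycans (-0.995) over hedgehog genes, Robo and Slit genes and fibroblast markers to cholesterol synthesis (-0.77). The dotted line is the median over all genes (-0.0046).

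Among p53 targets, rises prevailed. Of 43 targets with roles in feedback, adaptation and repair, 36 rose and Sesn1 fell (-0.46), with a median log2 fold change of 0.86. Their summed level was 5337 and 5379 CPM with ENPP1+ATP, and 2573 and 2650.2 CPM with vehicle. Mdm2, the ligase that removes p53, was at 529.9 and 521 CPM in the ENPP1+ATP libraries and 133 and 139.8 CPM in the vehicle libraries (log2 fold change 1.94, SE 0.068, adjusted p = 6.1e-16). Trp53 itself, which encodes p53, was at 217 and 218 CPM against 222 and 213 CPM, and its log2 fold change of -0.0012 (SE 0.042) did not pass the test. The Trp53 values of the groups overlapped, whereas those of Mdm2 did not.

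Btg2, an antiproliferative cofactor of mRNA decay, was at 163 and 176 CPM against 27.7 and 31.3 CPM (2.53 on the log2 scale). Ccng1, a cyclin that recruits a phosphatase to MDM2, was at 738 and 738 CPM against 169 and 184 CPM (2.06). Ano3, a membrane scramblase of the anoctamin family, was at 44.6 and 43.4 CPM against 9.16 and 10.4 CPM (2.19). For these genes both ENPP1+ATP values lay above both vehicle values. Sytl1, a vesicle trafficking protein, rose from 0.648 and 0.889 to 4.48 and 4.14 CPM (2.55). Sesn1, which restrains mTORC1 in nutrient stress, was the member that fell, at 28.1 and 25.4 CPM against 39.01 and 34.4 CPM.

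Of 10 p53 targets of cell cycle arrest, 7 rose and the other 3 did not pass the test, with a median of 1.58. Cdkn1a encodes the cyclin-dependent kinase inhibitor p21, and its level was 461 and 498 CPM in the ENPP1+ATP libraries and 115 and 130.4 CPM in the vehicle libraries. That is a log2 fold change of 1.97 (SE 0.14, adjusted p = 2.3e-07), with no overlap between the groups. Gtse1, a microtubule protein that shuttles p53 out of the nucleus, was at 370.3 and 379.9 CPM against 84.8 and 83.04 CPM (2.16). Rprm, the G2 arrest mediator reprimo, was at 8.44 and 9.87 CPM against 1.19 and 1.56 CPM (2.78). Ccnd1, which encodes the G1 cyclin D1, was at 63.7 and 76.6 CPM against 46.4 and 51.4 CPM and rose by 0.53. Gadd45a, a growth arrest gene also induced by damage, was at 27.2 and 31.4 CPM against 31.8 and 32.7 CPM and did not pass the test (adjusted p = 0.13), whereas it was called lower without the second ENPP1+ATP library.

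The promoter of Cdkn1a is shown because, among genes called higher, its window was the only one with a full match to the p53 consensus. This match was searched on both strands as a pair of consensus decamers at most 13 bases apart. Of 11493 tested genes with a RefSeq window of the 250 bases before the start, 4 (0.0348%) held one. The window (RefSeq, GRCm38.p6, chr17:29090729-29090978, plus strand) is printed 5′ to 3′ with the matched pair and its spacer in capitals. The bases directly after the pair (tgacatgttc) miss the decamer pattern only at their first base and stay in lower case. The capitals therefore mark a match to the pattern and not a known binding site.
Cdkn1a: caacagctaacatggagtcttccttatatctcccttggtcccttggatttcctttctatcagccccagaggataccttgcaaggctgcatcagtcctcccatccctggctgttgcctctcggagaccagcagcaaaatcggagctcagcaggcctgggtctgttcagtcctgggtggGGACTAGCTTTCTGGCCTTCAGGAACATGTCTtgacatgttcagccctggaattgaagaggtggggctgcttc

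Of 23 p53 targets that promote death, 17 rose, Igfbp3 fell (-0.48), and the median was 0.57. Pidd1, the scaffold that activates caspase-2, was at 131 and 126 CPM against 32.3 and 31.5 CPM (2.01). Eda2r, a death receptor of the TNF family, was at 109 and 126 CPM against 36.5 and 42.3 CPM (1.59). Tnfrsf18, a TNF family receptor known from T cells, rose from 0.648 and 0.673 to 5.63 and 7.42 CPM. Bbc3, which encodes PUMA, was at 30.4 and 31.9 CPM against 24.1 and 22.9 CPM, a smaller rise of 0.40. Tnfrsf10b, the TRAIL receptor, was at 118 and 129 CPM against 62.1 and 67.8 CPM (0.94).

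**Figure D3:**
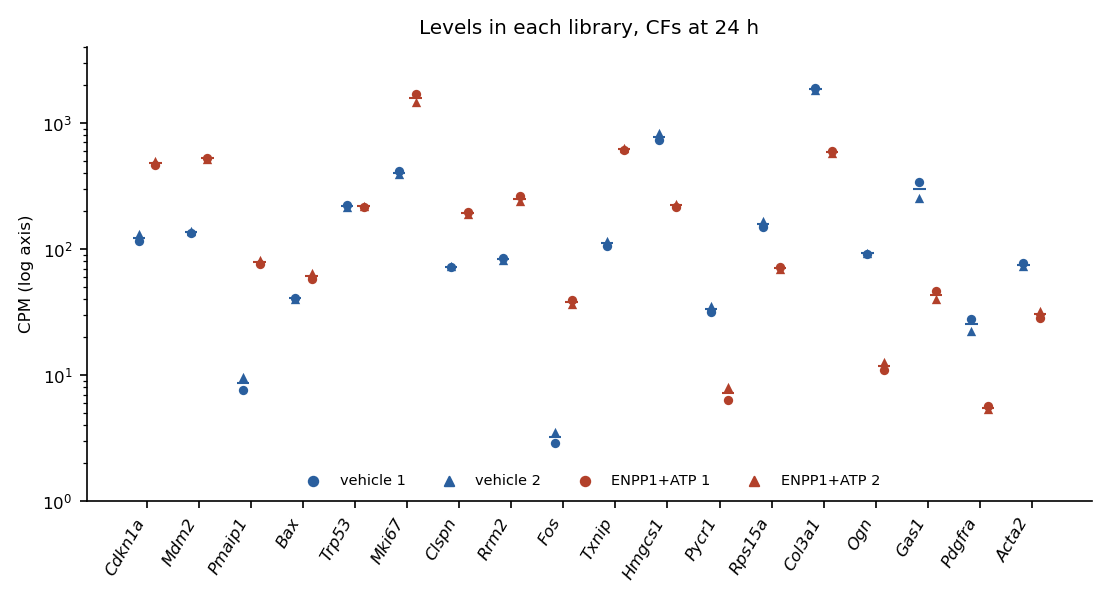
CPM of 18 genes (log axis) in each of the 4 libraries at 24 h. Circles are first and triangles second libraries, blue is vehicle, red is ENPP1+ATP, and lines are group means. For 17 of the genes, which were chosen from those named in the text, the groups do not overlap. The same holds for 76.2% of all genes tested. The 4 Trp53 values lie between 213 and 222 CPM.

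The BCL2 family, whose members guard or open the outer mitochondrial membrane, split in both directions. Of 19 members tested, 8 rose and 5 fell (3 without the first ENPP1+ATP or the first vehicle library), and the median was -0.044. The median was 0.00073 without the first ENPP1+ATP library, -0.069 without the second ENPP1+ATP library and 0.0023 without the second vehicle library. The executioner Bax was at 58.2 and 64.4 CPM in the ENPP1+ATP libraries and 41.04 and 40.1 CPM in the vehicle libraries (log2 fold change 0.59, SE 0.067, adjusted p = 5.2e-08). The other executioner, Bak1, was at 158 and 172 CPM against 173 and 172 CPM and did not pass the test (adjusted p = 0.43). Among guardians, Bcl2 fell from 19.8 and 20.2 to 10.03 and 12.04 CPM (-0.85), Bcl2l2 fell (-0.83), and Bcl2l1, which encodes BCL-XL, rose from 60.3 and 59.2 to 86.8 and 94.7 CPM (0.60). Among members other than the executioners that promote apoptosis, Pmaip1 and Bcl2l11 (0.45), which encodes BIM, rose. Bmf, also of this kind, was at 4.11 and 4.01 CPM against 15.6 and 13.1 CPM, a fall of -1.83. Guardians and these promoters of apoptosis thus each held members of both directions.

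Of 28 caspases and death receptor genes, 8 (28.6%) rose and 11 (39.3%) fell, with a median of 0.044. Over all genes tested, 23.9% rose and 25.3% fell. The median was 0.029 without the second ENPP1+ATP library, 0.024 without the first vehicle library and 0.073 without the second vehicle library. Casp12, an endoplasmic reticulum caspase, was at 16.6 and 18.9 CPM against 38.6 and 38.98 CPM (-1.12). Mlkl, the executioner of necroptosis, was at 124 and 129 CPM against 213 and 219.9 CPM (-0.77).

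Mitosis genes were higher almost throughout. Of 82 mitosis genes tested, 80 (97.6%) rose and the other 2 (Cks1b and Kif18a) did not pass the test, with a median log2 fold change of 0.74. Their summed level was 14328 and 13975 CPM with ENPP1+ATP, and 7624 and 7561 CPM with vehicle. Mki67, the proliferation marker that coats mitotic chromosomes, was at 1699 and 1452 CPM in the ENPP1+ATP libraries and 416 and 389.7 CPM in the vehicle libraries (log2 fold change 1.97, SE 0.07, adjusted p = 8.0e-16). The kinetochore genes Cenpn and Spc25 were at 123 and 111 CPM against 35.5 and 33.5 CPM and at 151 and 151 CPM against 49.97 and 48.6 CPM. Kif18b, a kinesin of spindle microtubules, was at 189.99 and 189.9 CPM against 75.4 and 73.98 CPM (1.35). The middle 50% of the list lay between 0.57 and 1.01.

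The DNA replication machinery rose to a lesser degree, with 42 of 62 genes higher, 8 lower (4 without the second ENPP1+ATP library) and a median of 0.36. Clspn, the checkpoint adaptor claspin, was at 197 and 190.1 CPM in the ENPP1+ATP libraries and 71.4 and 72.7 CPM in the vehicle libraries (log2 fold change 1.43, SE 0.053, adjusted p = 3.4e-16). Ticrr and Mcm10, which act in the firing of origins, rose by 1.20 and 1.11. Cdc7, a kinase of the same step, was at 68.8 and 68.2 CPM against 32.6 and 31.8 CPM. Members of the core helicase did not share a direction, for Mcm7 rose (0.53), Mcm6 fell (-0.18, not called without the second ENPP1+ATP library) and Mcm2 did not pass the test (-0.0086). Pold2, a subunit of polymerase delta, was at 53.2 and 50.5 CPM against 79.8 and 79.8 CPM (-0.62), and Rnaseh2c, a subunit of ribonuclease H2, fell by -0.60.

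E2F factors and regulators of the G1 to S transition moved both ways. Of 35 tested, 20 rose and 10 fell, with a median of 0.22. Mybl1, a transcription factor of the MYB family, was at 60.1 and 67.5 CPM against 15.7 and 19.3 CPM (1.88). E2f8, an atypical repressor, was at 139 and 126 CPM against 52.4 and 50.9 CPM (1.36), and E2f2, an activator, was at 25.8 and 25.3 CPM against 10.9 and 10.3 CPM (1.27). The inhibitor Cdkn2b (p15) was at 42.9 and 46.3 CPM against 97.7 and 102 CPM (-1.16), and the inhibitors Cdkn1c (-1.08), Cdkn1b (-0.84) and Cdkn2a (-0.81) fell with it while Cdkn1a rose. Mycn, a factor of the MYC family, fell from 2.79 and 3.17 to 1.199 and 1.38 CPM.

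Of 52 replication-dependent histone genes tested, 12 (23.1%) rose, 5 (9.62%) fell and 35 did not pass, with a median of 0.52. The share that rose was near the 23.9% of all genes tested, and the share that fell was below their 25.3%. The median was 0.28 without the first vehicle library. Hist1h2bj was at 7.78 and 6.77 CPM against 1.02 and 1.249 CPM, and the linker histone gene Hist1h1c at 29.3 and 38.6 CPM against 87.5 and 83.7 CPM. Without the second ENPP1+ATP library or the second vehicle library 7 rose, without the first vehicle library 5 rose, and without the first ENPP1+ATP library 3 fell. These genes are near copies of each other, and most of their mRNAs lack poly(A) tails, so their values are uncertain. Their summed level was higher with vehicle (189.7 and 192 CPM) than with ENPP1+ATP (143 and 154 CPM), against the sign of the median.

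DNA damage signalling and repair followed, with 52 of 82 genes higher, 10 lower and a median of 0.37. Mdc1, the mediator that binds phosphorylated H2AX at breaks, was at 758 and 690.2 CPM in the ENPP1+ATP libraries and 245 and 247 CPM in the vehicle libraries (log2 fold change 1.56, SE 0.059, adjusted p = 4.4e-16). Brip1, a helicase of crosslink repair, was at 113 and 107 CPM against 44.6 and 42.99 CPM. Polk, a translesion polymerase, rose by 1.47. Apex1, the endonuclease of base excision repair, was at 63.6 and 65.3 CPM against 158 and 166 CPM, a fall of -1.33. Prkdc, the kinase of end joining, fell by -0.76. Exons of Apex1 overlap Pip4p1 on the opposite strand.

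The promoters of these lists were scanned because cell cycle genes are known to share elements. A CHR core (TTTGAA) is bound by the DREAM and MuvB complexes, an E2F core (TTCCCGC) by E2F factors and a CCAAT box (CCAAT) by NF-Y. In the 250 bases before the start, on both strands, a CHR core stood in 35.8% of 67 mitosis genes with a window and in 10.6% of 11493 genes tested. A CCAAT box stood in 71.6% and 36.1%. These shares were not particular to cell cycle genes, since a CCAAT box stood in 77.8% of 9 p53 arrest targets and in 75% each of 24 genes of cholesterol synthesis and 24 of the unfolded protein response, and a CHR core in 44.4% of 9 proteoglycan genes. An E2F core stood in 23.5% of 51 replication genes, 17.7% of 62 repair genes, 2.99% of mitosis genes and 6.81% of all. The 24 mitosis genes with a CHR core had a median log2 fold change of 0.88, and the 43 without had 0.72. The middle 50% of the first lay between 0.66 and 1.004 and that of the second between 0.53 and 0.996, so that the ranges overlapped.

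The windows of the mitosis gene and the replication gene with the largest rise among those with the element are shown, each on the strand of its gene (RefSeq, GRCm38.p6). In Mki67 (chr7:135716380-135716629, minus strand) capitals mark CHR cores and CCAAT boxes of either strand. In Cdc6 (chr11:98907901-98908150, plus strand), an origin licensing gene at 135 and 125 CPM against 70.9 and 69.1 CPM, capitals mark the E2F core.
Mki67: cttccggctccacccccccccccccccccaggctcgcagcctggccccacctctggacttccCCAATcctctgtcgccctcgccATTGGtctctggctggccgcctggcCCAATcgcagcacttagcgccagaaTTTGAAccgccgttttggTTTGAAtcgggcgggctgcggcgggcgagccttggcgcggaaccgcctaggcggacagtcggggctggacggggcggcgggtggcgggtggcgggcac
Cdc6: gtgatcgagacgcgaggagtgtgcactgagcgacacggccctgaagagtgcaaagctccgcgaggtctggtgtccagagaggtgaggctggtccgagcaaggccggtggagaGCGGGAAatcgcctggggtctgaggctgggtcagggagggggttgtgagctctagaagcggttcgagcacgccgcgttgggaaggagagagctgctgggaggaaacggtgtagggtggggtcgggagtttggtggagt

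**Figure D4:**
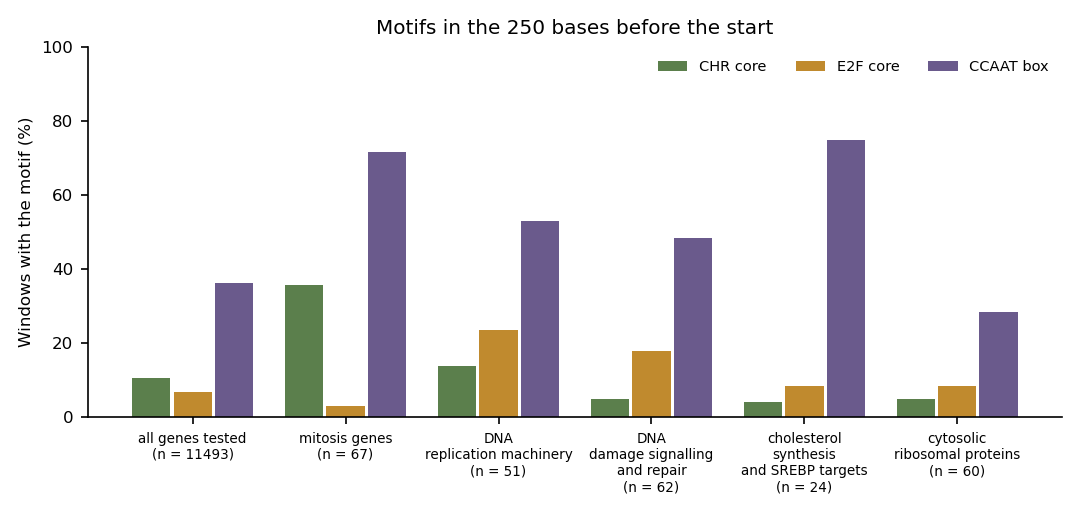
Share of promoter windows (250 bases before the start, RefSeq, GRCm38.p6) that hold each motif on either strand, in percent, for all genes tested and 5 lists, with the number of windows below each group. CHR cores are most frequent in mitosis genes (35.8%) and E2F cores in replication genes (23.5%) among the groups drawn. A match is a description and not a binding site.

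Nucleotide metabolism was of interest because the study followed pyrimidine synthesis in these cells. De novo synthesis runs from CAD over DHODH to UMPS, which uses phosphoribosyl pyrophosphate (PRPP) to turn orotate into UMP. Cad was at 189 and 186 CPM against 165 and 168 CPM (0.17), a rise that was not called without the first ENPP1+ATP library or without 1 or the other vehicle library. Dhodh was at 10.99 and 13.8 CPM against 16.8 and 19.2 CPM (-0.53) and fell. Umps was at 106 and 104 CPM in the ENPP1+ATP libraries and 86.7 and 86.8 CPM in the vehicle libraries, a rise of 0.28 (SE 0.048, adjusted p = 2.6e-05). The 3 enzymes of the pathway thus did not move together, and no change among them reached 2-fold.

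Of the CTP synthases, Ctps2 fell (-0.51), and Ctps did not pass the test (-0.10, adjusted p = 0.095) except without the first vehicle library. Of salvage enzymes, Uck1 rose (0.38), Uck2 (-0.27) and Uprt (-0.66) fell, and Upp1, uridine phosphorylase, was at 3.72 and 3.03 CPM against 1.08 and 1.37 CPM. Dpyd, which degrades uracil and thymine, was at 5.07 and 4.48 CPM against 2.38 and 2.26 CPM. In all, 10 of 32 genes of pyrimidine synthesis and salvage (31.25%) rose and 11 (34.4%) fell, with a median of -0.12. Over all genes tested, 23.9% rose and 25.3% fell. Nme1 (-0.79) and Nme2 (-1.51) fell, but both overlap a read-through gene on the same strand, and Nme2 was not called without the first ENPP1+ATP library.

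PRPP is made by PRPP synthetases and used by salvage enzymes. Prps1 was at 51.1 and 49.1 CPM against 31.2 and 33.4 CPM (0.64) and Prps2 at 106 and 115 CPM against 75.9 and 82.2 CPM (0.49), and both rose. Aprt, which joins adenine to PRPP, was at 65.4 and 68.9 CPM in the ENPP1+ATP libraries and 69.5 and 71.5 CPM in the vehicle libraries, and its log2 fold change of -0.068 (SE 0.061) did not pass the test (adjusted p = 0.38). Hprt, which salvages hypoxanthine and guanine, was at 72.2 and 80.7 CPM against 54.01 and 58.8 CPM (0.44). Ppat, the first enzyme of de novo purine synthesis, was at 47.4 and 49.1 CPM against 47.5 and 51.1 CPM and did not pass the test (adjusted p = 0.76).

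Of 37 purine genes, 7 rose and 13 fell, with a median of -0.10. Pnp, purine nucleoside phosphorylase, was at 111 and 127 CPM against 229.8 and 251 CPM (-1.01), and Adk, adenosine kinase, fell (-0.44). Ak1, an adenylate kinase, was at 156 and 169.8 CPM against 84.7 and 81.1 CPM (0.98). Xdh (-0.72), which makes urate, Nudt2 (-0.88) and Ak4 (-0.77) fell.

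Deoxynucleotide supply had 9 of 19 genes higher and 6 lower, with a median of 0.15. Rrm2, the regulated subunit of ribonucleotide reductase, was at 261 and 239 CPM in the ENPP1+ATP libraries and 84.4 and 82.002 CPM in the vehicle libraries (log2 fold change 1.59, SE 0.065, adjusted p = 1.8e-15). Rrm1, its other subunit, and Dck, deoxycytidine kinase, rose by 0.61 and 0.65. Txn1, the reductant of the enzyme, fell (-0.54), as did Shmt2 (-0.50).

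Of 30 genes that act on nucleotides outside the cell, 8 (26.7%) rose, 5 (16.7%) fell and 17 did not pass the test. Over all genes tested, 23.9% rose and 25.3% fell. The list had a median of 0.091. The median was 0.04 without the first ENPP1+ATP library, 0.16 without the second ENPP1+ATP library and 0.019 without the second vehicle library. Enpp1 of the CFs themselves was at 24.1 and 21.8 CPM in the ENPP1+ATP libraries and 6.23 and 5.81 CPM in the vehicle libraries, a rise of 1.92 (SE 0.14, adjusted p = 2.9e-11). P2rx7, an ATP-gated channel, was at 47.99 and 47.3 CPM against 20.4 and 20.7 CPM (1.21). Slc29a1, the main equilibrative nucleoside carrier, was at 156 and 162 CPM against 264 and 248 CPM and fell (-0.69), whereas the purine base carrier Slc43a3 was at 202 and 207 CPM against 136 and 137 CPM and rose (0.59). Enpp5 rose (0.66) and Enpp3 fell (-0.88). Adora2b, an adenosine receptor, fell from 2.03 and 2.47 to 0.587 and 0.792 CPM.

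**Figure D5:**
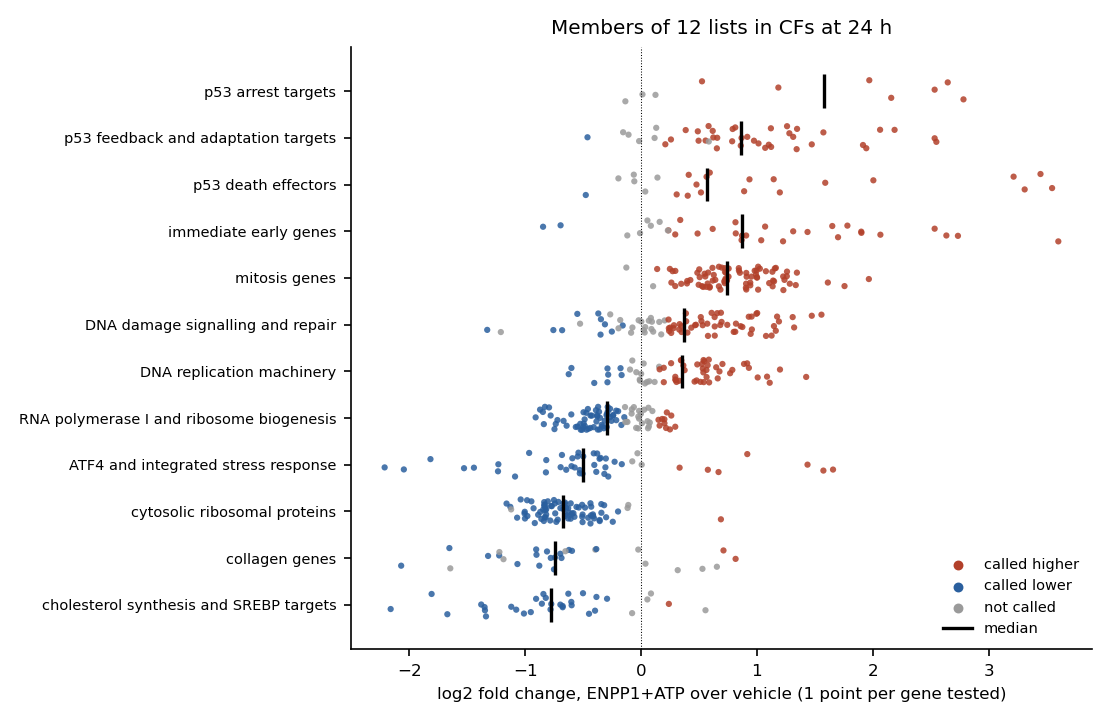
Each point is a gene tested, by its log2 fold change of ENPP1+ATP over vehicle (horizontal), in 12 lists. Red points were called higher, blue lower and grey not called, and bars are medians. Mitosis genes and ribosomal protein genes lie almost wholly on opposite sides of 0 (medians 0.74 and -0.67).

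Most ribosomal protein genes were lower. Of 81 cytosolic ribosomal protein genes, 77 (95.1%) were lower and Rps27l was higher, with a median log2 fold change of -0.67. Their sum was 16243 and 17009 CPM with ENPP1+ATP, and 24465 and 25403 CPM with vehicle. Rps15a was at 71.9 and 69.3 CPM in the ENPP1+ATP libraries and 150.02 and 166 CPM in the vehicle libraries (log2 fold change -1.16, SE 0.069, adjusted p = 1.4e-12). Rps27a and Rps18 fell by -1.13 and -1.07. Rps27l, a ribosomal protein paralog that p53 is known to induce, was at 71.6 and 75.4 CPM against 43.2 and 48.4 CPM (0.69). Many ribosomal protein genes have processed pseudogenes that can draw their reads, so single values are uncertain.

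Ribosome biogenesis and RNA polymerase I had 59 of 90 genes lower and 10 higher (6 without the second vehicle library), with a median of -0.30. Polr1a, the largest subunit of RNA polymerase I, was at 75.3 and 79.02 CPM against 138 and 144 CPM (-0.87). Fbl, the methyltransferase fibrillarin, was at 41.02 and 39.9 CPM against 69.3 and 75.6 CPM (-0.84), and Mybbp1a, a nucleolar protein, at 147 and 156 CPM against 266 and 279 CPM (-0.85). No member changed 2-fold, and the largest fall was that of Gar1 (-0.91). Rrp1 was the largest rise, at 0.30.

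The targets of ATF4, the factor of the integrated stress response, fell in the main, with 35 of 45 lower, 7 higher and a median of -0.50. Pycr1, which makes proline, was at 6.34 and 8.01 CPM in the ENPP1+ATP libraries and 31.6 and 35.2 CPM in the vehicle libraries (log2 fold change -2.21, SE 0.12, adjusted p = 2.5e-13). The glycine carrier Slc6a9 was at 28.6 and 31.8 CPM against 126 and 124 CPM (-2.05), and the folate enzyme Aldh1l2 at 130.3 and 143 CPM against 473 and 492 CPM (-1.82). Vldlr, a lipoprotein receptor, fell by -1.53. Gdf15, a secreted stress factor that is also a p53 target, was at 107 and 114 CPM against 36.6 and 37.7 CPM, a rise of 1.57. Cbs, of cysteine synthesis, rose from 1.37 and 1.47 to 4.63 and 4.26 CPM.

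The unfolded protein response of the endoplasmic reticulum gave 14 of 31 genes lower and 6 higher, with a median of -0.041. The median was -0.079 without the first vehicle library. Xbp1, its transcription factor, was at 31.3 and 32.2 CPM against 72.2 and 79.2 CPM (-1.251), and Ern1, the sensor that splices Xbp1, was at 131 and 125 CPM against 85.2 and 87.8 CPM (0.57). Sec61b, of the translocon, fell (-1.12) and Ero1lb, an oxidase, rose (1.02). Of 20 cytosolic heat shock genes, 8 fell and 5 rose (3 without the first ENPP1+ATP library), with a median of -0.11. The median was -0.067 without the second ENPP1+ATP library. Hsp90aa1 was at 1063 and 1046 CPM against 755 and 785 CPM (0.45), whereas its constitutive paralog Hsp90ab1 was at 1697 and 1694 CPM against 2284 and 2352 CPM (-0.45).

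Transcripts of lipid synthesis genes were mostly lower. Of 33 genes of cholesterol synthesis and SREBP targets, 28 fell and Scap rose (0.24), with a median of -0.77. Hmgcs1, which makes HMG-CoA, was at 217 and 226 CPM in the ENPP1+ATP libraries and 726 and 826 CPM in the vehicle libraries (log2 fold change -1.81, SE 0.062, adjusted p = 9.3e-17). Tm7sf2, a sterol reductase, was at 15.7 and 17.7 CPM against 71.6 and 78.3 CPM (-2.16), and part of its exons overlap Vps51. The list also holds the cholesterol exporters Abca1 and Abcg1, which sterols are known to induce through LXR. Both are among the 28 that fell, by -1.38 and -1.67.

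In fatty acid synthesis, 17 of 24 genes fell and 4 rose (2 without the first ENPP1+ATP library), with a median of -0.64. Acss2, which makes acetyl-CoA from acetate, was at 52.7 and 55.1 CPM against 183 and 193 CPM (-1.80). Scd1, the stearoyl-CoA desaturase, was at 345 and 348 CPM against 767 and 813 CPM (-1.19). Acsl3 (-1.48) and Elovl6 (-1.16) fell, and Elovl7 (1.93) and the triglyceride enzyme Dgat2 (1.07) rose.

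Fatty acid oxidation and PPAR targets showed no common direction, with 17 of 44 higher, 13 lower and a median of 0.057. The median was 0.11 without the first ENPP1+ATP library and 0.035 without the second vehicle library. Angptl4, a secreted inhibitor of lipoprotein lipase, was at 7.78 and 8.01 CPM against 0.955 and 0.793 CPM (3.12), and the lipase gene Lpl was at 54.8 and 65.03 CPM against 167 and 175 CPM (-1.51). Cpt1c was at 195 and 189 CPM against 95.3 and 83.2 CPM (1.10) and Acad11 at 62.9 and 62.4 CPM against 24.5 and 24.5 CPM (1.35), and both are also known as p53 targets. Acaa1a, a peroxisomal thiolase, fell by -1.23, and Plin4, of lipid droplets, rose by 0.73.

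Of 39 glycolysis and hypoxia genes, 21 fell and 9 rose, with a median of -0.22. Hk2, a hexokinase, was at 30.4 and 32.5 CPM against 54.6 and 63.4 CPM (-0.90), and Aldoa, an aldolase, at 335 and 335 CPM against 565 and 562 CPM (-0.75). Adm, the vasodilator peptide adrenomedullin, fell (-1.37), and Car12, a carbonic anhydrase, was at 14.4 and 12.8 CPM against 3.57 and 4.9000 CPM (1.72). Of 76 nuclear genes of oxidative phosphorylation, 39 were lower, 3 were higher and 34 did not pass the test, with a median of -0.16. Ndufs8, of complex I, fell by -0.60, and Ndufb10, of the same complex, rose by 0.37.

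Of the 13 mitochondrially encoded subunits, 3 rose and 5 fell, or 3 fell without the first ENPP1+ATP or the second vehicle library. The abundant mt-Co1 was at 9248 and 9415 CPM against 7863 and 7306 CPM (0.30), and mt-Nd1 at 3989 and 4004 CPM against 3156 and 2789.8 CPM (0.43). Falls were found for mt-Co3 at 7.195 and 8.38 CPM against 12.6 and 16.6 CPM (-0.89) and mt-Atp6 at 6.05 and 7.02 CPM against 9.3004 and 12.99 CPM (-0.75), the latter not called without 1 or the other ENPP1+ATP library or the second vehicle library, and how reads shared with nuclear copies were counted is not given in the sources used here. The sum of the 13 genes was 21617 and 21937 CPM with ENPP1+ATP, above 19502 and 17917 CPM with vehicle, while the median was -0.32. The median was -0.19 without the first ENPP1+ATP library, -0.61 without the first vehicle library and -0.19 without the second vehicle library.

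The NRF2 and antioxidant list had 11 of 50 genes higher and 23 lower, with a median of -0.10. Its largest rises were the carboxylesterases Ces2f and Ces2e, with Ces2e at 56.8 and 64.7 CPM in the ENPP1+ATP libraries and 4.05 and 5.93 CPM in the vehicle libraries. Slc7a11, the cystine carrier, was at 23.5 and 33.9 CPM against 62.9 and 72.8 CPM (-1.23), and Me1, malic enzyme, at 100.2 and 95.3 CPM against 194 and 200.2 CPM (-1.01). Aox1 (-1.13) and the exporter Abcc1 (-0.77) fell. The esterases therefore moved against most members of the list that were called.

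Matrix genes were lower in several classes. Of 29 collagen genes tested, 17 fell and 2 rose, with a median log2 fold change of -0.74. All collagen genes of the list summed to 7409 and 7275 CPM with ENPP1+ATP, and to 14639.6 and 13955 CPM with vehicle. Col3a1, of the type III fibril, was at 594 and 577 CPM in the ENPP1+ATP libraries and 1875 and 1809.8 CPM in the vehicle libraries (log2 fold change -1.65, SE 0.068, adjusted p = 3.2e-15). Col1a2 was at 446 and 454 CPM against 1061 and 1040.3 CPM (-1.22), Col5a1 fell by -1.32, and the fibril collagen Col11a1 was at 94.3 and 102 CPM against 414 and 409 CPM (-2.07). Col7a1, of anchoring fibrils, was at 14.9 and 12.97 CPM against 9.003 and 7.85 CPM (0.71), and Col23a1, a membrane collagen, rose by 0.82, a call lost without 1 or the other ENPP1+ATP library or the second vehicle library, which leaves 1 riser.

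Enzymes that process and cross-link collagen fell in 19 of 24 cases and rose in 2, with a median of -0.49. Lox, lysyl oxidase, was at 184 and 204 CPM against 590.4 and 591 CPM (-1.61). Serpinh1, the collagen chaperone HSP47, was at 649.96 and 736 CPM against 1594 and 1677 CPM (-1.24), and Tgm2, a transglutaminase, at 23.4 and 22.5 CPM against 54.5 and 55.97 CPM (-1.27). Adamts14, which trims procollagen, fell by -1.45. Loxl4 and Plod1 rose, by 0.50 and 0.37.

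Small leucine-rich proteoglycans, which bind collagen fibrils, included Aspn and Ogn, named above among the 10 largest falls. Of 12 tested, 7 fell and 2 rose, with a median of -0.995, or -1.64 in a fit of the 4 libraries alone, which tested 11. Beside Aspn and Ogn, Podnl1 was at 6.07 and 5.64 CPM against 31.4 and 27.96 CPM (-2.35) and Omd fell by -1.69. Podn, podocan, was at 4.99 and 4.64 CPM against 1.33 and 1.01 CPM, a rise of 1.99. Dcn, decorin, rose by 0.56 and Bgn, biglycan, was at 3418 and 3274 CPM against 4433 and 4038 CPM (-0.34). Aspn, Ogn and Omd lie side by side on chromosome 13 next to Ecm2, which fell as well (-1.65).

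Matricellular and matrix glycoproteins fell in 28 of 46 cases and rose in 5 (3 without the second vehicle library), with a median of -0.54. Thbs1, thrombospondin 1, was at 225 and 221 CPM against 498 and 506 CPM (-1.17), and Tgfbi was at 19.4 and 19.4 CPM against 78.05 and 67.04 CPM (-1.91). Wisp2 fell by -1.70, and Fbn2, a fibrillin, by -2.06. Matn4, matrilin 4, was at 2.91 and 3.83 CPM against 0.228 and 0.288 CPM (3.76). Cyr61, a target of YAP, was at 406 and 414 CPM against 329 and 319.7 CPM (0.34). Fn1, fibronectin, was at 3469 and 3392 CPM against 5077 and 5228 CPM (-0.59).

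Matrix proteases and their inhibitors moved both ways, 8 of 26 higher and 13 lower, with a median of -0.098. The median was -0.24 without the second ENPP1+ATP library and -0.27 without the second vehicle library. Adamts1, which cleaves versican, was at 79.5 and 80.6 CPM in the ENPP1+ATP libraries and 347 and 356 CPM in the vehicle libraries, a fall of -2.13 (SE 0.069, adjusted p = 9.7e-17). Adamts5 was at 217 and 219.9 CPM against 523 and 549.9 CPM (-1.30), and Adamts12 and Mmp16 fell by -1.50 and -1.18. The membrane-bound Mmp15 was at 31.8 and 34.4 CPM against 5.12 and 5.404 CPM (2.66) and Mmp17 at 11.3 and 8.104 CPM against 2.94 and 2.47 CPM (1.82), both rises.

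Of 39 myofibroblast and contractile genes, 18 fell and 7 rose, with a median of -0.14. Acta2, which encodes αSMA, was at 28.1 and 32.4 CPM in the ENPP1+ATP libraries and 77.2 and 72.7 CPM in the vehicle libraries (log2 fold change -1.31, SE 0.076, adjusted p = 4.9e-13). Flna, an actin crosslinker, was at 686 and 718 CPM against 1381 and 1427 CPM and fell, and the cadherin Cdh11 was at 13.1 and 12.5 CPM against 26.2 and 25.1 CPM (-1.01). Itga11, a collagen receptor, fell by -1.73. Mylk, myosin light chain kinase, was at 11.6 and 8.38 CPM against 4.098 and 3.58 CPM (1.37), and the smooth muscle protein Smtn at 101 and 98.3 CPM against 53 and 51.4 CPM (0.93), and both rose. Des, desmin, rose by 0.95, a call lost without the second ENPP1+ATP or the first vehicle library.

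TGF-β and BMP signalling had 26 of 48 genes lower and 4 higher, with a median of -0.26. Bmp4, a ligand, was at 16.4 and 16.98 CPM against 64.03 and 68.6 CPM (-1.99), and Bmp6 at 7.59 and 10.4 CPM against 25.1 and 26.2 CPM (-1.51). Smad6, an inhibitory SMAD that BMP signals induce, was at 7.22 and 8.65 CPM against 22.4 and 22.03 CPM (-1.48). Id3, Bmp4, Bmp6 and Smad6 were named for their falls, and 18 of the 48 genes did not pass the test. Id4 rose from 0.797 and 0.697 to 2.42 and 1.92 CPM.

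Growth factors and their receptors fell in 19 of 36 cases and rose in 6, with a median of -0.35. Pdgfra was at 5.68 and 5.34 CPM in the ENPP1+ATP libraries and 27.9 and 22.6 CPM in the vehicle libraries (log2 fold change -2.21, SE 0.13, adjusted p = 1.1e-12). Pdgfrb was at 283 and 261 CPM against 789 and 706 CPM (-1.46). Angpt1, an angiopoietin, was at 6.804 and 6.09 CPM against 22.5 and 22.2 CPM (-1.79), and Vegfc, the lymphatic growth factor, at 10.03 and 9.55 CPM against 29.9 and 28.8 CPM (-1.59). Angptl2 rose by 1.07.

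The insulin-like growth factor axis fell in 10 of 17 cases and rose in 2, with a median of -0.56. Igf1, its ligand, was at 3.82 and 5.39 CPM against 17.6 and 18.999 CPM (-1.98). The binding proteins Igfbp4 and Igfbp5 fell by -1.37 and -2.23, as did Stc2 (-1.44). Irs2, a substrate of the receptor, was at 58.6 and 56.05 CPM against 38.9 and 38.1 CPM (0.57).

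Hedgehog genes fell in 8 of 12 cases, with a median of -0.92. Beside Gas1, the coreceptors Boc and Cdon were at 8.22 and 9.19 CPM against 23.6 and 24.6 CPM (-1.47) and at 93.6 and 82.6 CPM against 174 and 168 CPM (-0.96). Ptch1, a receptor and itself a target of the pathway, was at 14.05 and 16.7 CPM against 37.9 and 39.8 CPM (-1.33). Gli1, the usual readout, was at 0.2203 and 0.249 CPM against 0.622 and 0.408 CPM and did not pass the test (adjusted p = 0.058), and Gli2 fell by -1.27, a call lost without the first ENPP1+ATP library.

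Wnt genes fell in 13 of 30 cases and rose in 5 (3 without the second vehicle library), with a median of -0.38. The median was -0.25 without the first ENPP1+ATP library and -0.67 without the second ENPP1+ATP library. Sfrp2, a secreted modulator, was at 95.9 and 99.4 CPM against 353 and 344 CPM (-1.84). The receptors Fzd2 and Fzd8 were at 39.1 and 40.7 CPM against 119.9 and 115 CPM (-1.56) and at 23.96 and 24.2 CPM against 63.3 and 61.1 CPM (-1.37), and Porcn, which acylates ligands, fell by -1.61. The ligand Wnt9a was at 23.01 and 23.1 CPM against 3.56 and 3.67 CPM, a rise of 2.68, and Wnt5a rose by 0.92.

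Of the 8 Robo, Slit and Flrt genes tested, 5 fell and 2 rose, with a median of -0.86, or -0.36 with no filter on low counts, which adds 1 gene. Slit3, a ligand, was at 1.35 and 1.403 CPM against 7.79 and 6.63 CPM (-2.40), and Robo2 was at 0.881 and 0.928 CPM against 2.61 and 3.099 CPM (-1.65). Flrt2 and Flrt3, which bind these receptors and latrophilins, fell by -1.67 and -1.39. The 2 genes that rose, Robo3 among them, did so by at least 2-fold, and Slit3, Robo2, Flrt2 and Flrt3 were named for their falls.

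Immediate early genes, which answer signals within minutes, were higher. Of 33 tested, 25 rose and 2 fell, with a median of 0.87. Egr1, a zinc finger factor, was at 459 and 486 CPM in the ENPP1+ATP libraries and 77.6 and 74.3 CPM in the vehicle libraries (log2 fold change 2.64, SE 0.18, adjusted p = 2.8e-07). Fosb was at 16.2 and 16.2 CPM against 2.38 and 2.498 CPM (2.74), and Jun at 311 and 312 CPM against 74.2 and 74.7 CPM (2.07). Myc and Fosl2 went down, Myc from 91.4 and 87.4 to 47.6 and 52.04 CPM (-0.85) and Fosl2 by -0.69. Btg2 belongs to this list and to the p53 lists.

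Glucocorticoid and FOXO targets rose in 12 of 22 cases and fell in 6, with a median of 0.26. Txnip, an inhibitor of thioredoxin and of glucose uptake, was at 608 and 629.6 CPM in the ENPP1+ATP libraries and 105 and 116.1 CPM in the vehicle libraries (2.49). Dusp1, a MAP kinase phosphatase, was at 135 and 128 CPM against 39.9 and 29.6 CPM (1.90), and Sgk1 at 32.6 and 31.2 CPM against 13.4 and 11.5 CPM (1.35). Bcl6 rose by 0.81. Tsc22d3, a classical glucocorticoid target, was at 20.7 and 23.3 CPM against 43.2 and 44.2 CPM (-0.99), and Mt2 fell by -0.90, so that Dusp1 and Tsc22d3 went opposite ways.

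Of 47 interferon-stimulated genes, 21 fell and 5 rose, with a median of -0.29. The median was -0.15 without the first ENPP1+ATP library and -0.43 without the second ENPP1+ATP library. Mx1, an antiviral GTPase, was at 12.6 and 18.4 CPM against 70.2 and 82.3 CPM (-2.29, SE 0.39). Bst2, which tethers virions, was at 468 and 599 CPM against 1187 and 1230.2 CPM (-1.18). The immunoproteasome subunits Psmb8 and Psmb9 fell by -1.17 and -1.07. Ifi27 was the largest rise, and Irf9, of the interferon signalling complex, rose by 0.42.

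Chemokines and cytokines moved both ways, with 10 of 39 higher (6 without the first vehicle library), 14 lower and a median of -0.079. These are shares of 25.6% higher and 35.9% lower, against 23.9% and 25.3% of all genes tested. The median was -0.13 without the first ENPP1+ATP library, -0.28 without the second ENPP1+ATP library and -0.027 without the first vehicle library. Cxcl12, a homing chemokine, was at 398 and 379 CPM against 941 and 891 CPM (-1.24), and Ccl7, which attracts monocytes, at 114 and 127 CPM against 264 and 262 CPM (-1.12). Cxcl5 (-1.27) and Tslp (-1.71) fell. Lif, a cytokine of the interleukin 6 family and a p53 target, was at 22.8 and 24.4 CPM against 8.78 and 9.99 CPM (1.34), and Ccl8 rose from 0.885 and 0.504 to 1.93 and 1.86 CPM, a call lost without the first ENPP1+ATP or the second vehicle library.

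NF-κB genes rose in 10 of 23 cases and fell in 6, with a median of 0.16. Tnfaip3, the feedback inhibitor A20, was at 63.95 and 64.04 CPM against 33.8 and 33.7 CPM (0.92), and Nfkb2 at 259 and 262 CPM against 171 and 174 CPM (0.59). Irak3 (0.65) and Rela (0.44) rose. Tlr2, a receptor of bacterial lipoproteins, was at 36.3 and 40.2 CPM against 84.96 and 87.4 CPM (-1.17), and Vcam1, an adhesion molecule, at 428 and 446 CPM against 692 and 681 CPM (-0.65).

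Of 13 macrophage markers, 4 were tested and 9 had too few reads. Cd68 was at 15.8 and 21.03 CPM in the ENPP1+ATP libraries and 2.06 and 1.92 CPM in the vehicle libraries, and Csf1r, the receptor for M-CSF, was at 5.51 and 6.32 CPM against 0.867 and 0.841 CPM (2.78). Lyz2 was at 3.94 and 5.12 CPM against 5.53 and 5.28 CPM and Cd14 at 8.96 and 9.44 CPM against 9.62 and 7.37 CPM, and neither passed the test. Ptprc, the pan-leukocyte marker, had 0 and 0 reads with ENPP1+ATP and 4 and 2 with vehicle, and Adgre1 had 2 and 2 against 3 and 0. All 13 genes summed to 34.6 and 42.3 CPM with ENPP1+ATP and to 18.4 and 15.997 CPM with vehicle, and their part in the differences was not tested. Exons of Csf1r overlap Hmgxb3 on the opposite strand.

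Genes of senescence and lysosomes gave 11 of 32 (34.4%) higher and 10 (31.25%) lower, with a median of 0.03. Over all genes tested, 23.9% were higher and 25.3% lower. The median was 0.013 without the first ENPP1+ATP library, 0.075 without the second ENPP1+ATP library and 0.017 without the first vehicle library. Ulk1, the kinase that starts autophagy, was at 225 and 204 CPM against 110.1 and 105 CPM (0.99), and Ctsb, a lysosomal protease, at 872 and 852 CPM against 551 and 565 CPM (0.63). Hmgb2, a chromatin protein lost in senescence, was at 458 and 453 CPM against 237 and 238 CPM (0.94). Cdkn2a, which encodes p16 and ARF, was at 107 and 113 CPM against 193 and 193 CPM (-0.81). Map1lc3b, of autophagosomes, rose by 0.39.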

How the data were processed

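Bulk RNA was sequenced from CFs. The values are raw counts per gene that the authors deposited in 1 table of 20 CF libraries. The submitters' processing notes name STAR 2.5.3a and mm10, while the counting tool and its strand setting are not given in the sources used here. Counts were fitted with edgeR 4.0.16 in R 4.3.3 (filterByExpr, TMM scaling, robust quasi-likelihood, 1 mean for each of 10 groups over the 20 libraries). The test was the two-sided quasi-likelihood test of ENPP1+ATP against vehicle at 24 h, with Benjamini-Hochberg adjustment over all genes tested and a threshold of 0.05. The code was tested on simulated data. CPM uses TMM library sizes, and fold changes are fitted. DESeq2 1.42.0 and the other alternatives appear in the closing section.

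The comparison and the 49 gene lists were chosen with earlier results of these data known. Genes named are the 10 largest rises and falls whose log2 CPM averaged 2 or more and whose groups do not overlap, up to 4 members of a list in its main direction and 2 against it, and genes the study names. Others were named for their role after their values were seen. The limit on level used the average of both groups, so a gene could pass it through the group in which it was high. Gene models came from GENCODE M21 and promoter windows from RefSeq, matched by symbol for 11493 of 17879 genes. The rat cardiomyocyte and single-cell tables were not used here. Some genes of these lists are not reported here by name.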

Additional observations from a re-analysis of the deposited data

How the results depend on the processing

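The counts of called genes over all genes tested stayed within 1.5 times of those reported under every alternative. DESeq2 called 4390 genes higher and 4291 lower, a fit of the 4 libraries alone 4782 and 4763, and a fit with no filter on low counts 3804 and 4790. Leaving out 1 library of the comparison at a time gave between 3425 and 3780 higher and between 3651 and 3914 lower genes. A lone library is then assumed to vary like those of the other groups. Thinning the deep first vehicle library to the depth of the second, an alternative chosen after seeing the data, gave 4221 and 4422. Of the 280 genes named in the report, 266 stayed on their side of the threshold in every alternative, 14 did not in at least 1, and no direction of a called gene reversed. The share of calls that were higher ranged from 44.3% to 50.6%. Counts within some lists moved by over 1.5 times, also with all 4 libraries kept. The fit of the 4 libraries alone gave 7 higher genes against 4 for TGF-β and BMP signalling, and 8 against 5 for matricellular genes. It gave 6 against 3 for nuclear oxidative phosphorylation genes. With no filter on low counts, 8 mitochondrially encoded subunits were lower, against 5. Several list medians near 0 moved by over 1.5 times, some changing sign, also in alternatives that keep all 4 libraries. They lay between -0.05 and 0 for the BCL2 family, between -0.009 and 0.062 for caspase and death receptor genes, between -0.0025 and 0.048 for senescence and lysosome genes and between 0.019 and 0.083 for fatty acid oxidation genes. They lay between -0.089 and -0.022 for unfolded protein response genes, between -0.15 and -0.046 for chemokines and cytokines, between 0.03 and 0.11 for extracellular nucleotide genes and between -0.24 and -0.08 for matrix proteases. With no filter on low counts the median of macrophage markers was 0.061 over 13 genes. Small differences in genes of a few CPM are limited by depth, and 2 libraries per group limit all of them.

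The libraries carry replicate numbers in their labels, which do not say that a number marks a shared culture or day. Deviations of same-numbered libraries correlated at r = 0.089 between the groups compared, and between -0.11 and 0.28 over the 45 pairs of groups, so the numbers were not taken as a pairing. With the replicate number as a block, 4335 genes were called higher and 4598 lower, and no call of a named gene changed.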

Other observations

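Calls are given here by class of transcript. Of 13703 protein-coding genes, 28.6% were higher and 29.5% lower. Of 500 long intergenic RNAs, 12.6% were higher and 10.8% lower, with a median log2 CPM of -1.003 against 4.85 for protein-coding genes. Processed pseudogenes were lower more often (11.1%) than higher (3.02%), with a median log2 fold change of -0.26. Many such pseudogenes are copies of ribosomal protein genes, and how shared reads were counted is not given in the sources used here.

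Protein-coding genes at both ends of the range of genomic span lay below the others. The 10% with the shortest spans had a median log2 fold change of -0.15, with 16.05% higher and 33.04% lower. The 10% with the longest spans had a median of -0.15, with 21.01% higher and 39.8% lower. Of the 10 classes by span, class 7 was highest, at 0.084. The Spearman correlation across genes, which are not independent replicates, was 0.029.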
